A study of Mus musculus with 6 samples.

Results

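A set of 36 genes known for their expression in endothelial cells, the cells that line blood vessels and the heart chambers, was followed in hearts that overexpressed a microRNA cluster. The list was set by gene name, with earlier results of these data known. A gene entered when the array had a probe assigned to it alone. Where a gene has several such probes the brightest is taken, but every gene entered here had 1. This gave 34 of the 36 genes, among 22180 genes measured in the same way. Rasip1 shares its probe with a second gene and Ly6a has none in the annotation, so both were not analysed here. The 34 genes fall into 23 pan-endothelial genes, 5 capillary genes and 6 transcription factors.

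The study hybridised total RNA from mouse hearts to 6 Affymetrix arrays, 3 per group. Control mice carried Nkx2.5-Cre alone. The other mice, called transgenic here, carried Nkx2.5-Cre together with R26R-miR302-367, in which Cre switches on the cluster from the Rosa26 locus. All mice were of a mixed C57BL/6 x 129S6 strain, and Cre was present in both groups. Nkx2.5-Cre is active in cardiac progenitors, which give rise to heart muscle and to part of the endocardium, and which cells of these hearts made the cluster was not measured. The tissue is labelled as 14 days after birth in 2 fields and as E14 in the age field, a conflict that the labels do not resolve. Nothing in the labels says that the samples came from separate animals, so the p-values rest on the spread among these samples, part of which may be technical. In control hearts the defining endothelial markers Pecam1, Cdh5, Kdr and Tie1 had mean log2 values of 8.25 to 10.80, above the median over all genes (5.98); levels of different probes are only roughly comparable. In bulk heart RNA, fewer endothelial cells, less RNA per endothelial cell and a larger share of RNA from other cells cannot be told apart.

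The cluster makes microRNAs of a pair of seed families, and mature 3p sequences of 4 of its 5 genes are shown because the transgene encodes them; miR-302a-3p is not shown. Capitals mark the seed, bases 2 to 8, and the sequences are those of RefSeq, build GRCm38.p6.
mmu-miR-302b-3p: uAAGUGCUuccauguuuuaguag
mmu-miR-302c-3p: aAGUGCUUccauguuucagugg
mmu-miR-302d-3p: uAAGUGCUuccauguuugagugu
mmu-miR-367-3p: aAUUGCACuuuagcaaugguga
By this numbering miR-302b and miR-302d have the same seed, and miR-302c holds it shifted by 1 base. On the arrays the probes of all 5 cluster genes read above all controls in each transgenic sample, from a log2 difference of 2.99 for Mir302b to 6.61 for Mir302c. Over all genes, correlations were 0.990 to 0.995 within a group and 0.981 to 0.987 between groups, and no library stood apart from its group.

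Endothelial cells hold together through junction proteins such as VE-cadherin, and their growth and quiescence are governed by the VEGF receptors and by the angiopoietin receptor Tie2. ETS factors such as ERG and the SOXF factors keep the endothelial programme active. Heart muscle has one of the densest capillary beds of the body, and its capillary endothelium is specialised for taking up fatty acids.

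Endothelial genes were lower in transgenic hearts as a group. All 34 had a negative log2 difference (transgenic minus control), 17 of them fell at an adjusted p under 0.05, and 0 rose. Over all 22180 genes, 5.76% were called lower and 5.35% higher by the same test, which was limma's moderated test with Benjamini-Hochberg adjustment. The median difference of the 34 genes was -0.39 against -0.03 for all genes tested. The differences ran from -1.23 for Ly6c1 to -0.05 for Fabp4. For 26 of the 34 genes every transgenic value lay below every control value, where 16.7% of all genes were separated in that direction.

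**Figure D1:**
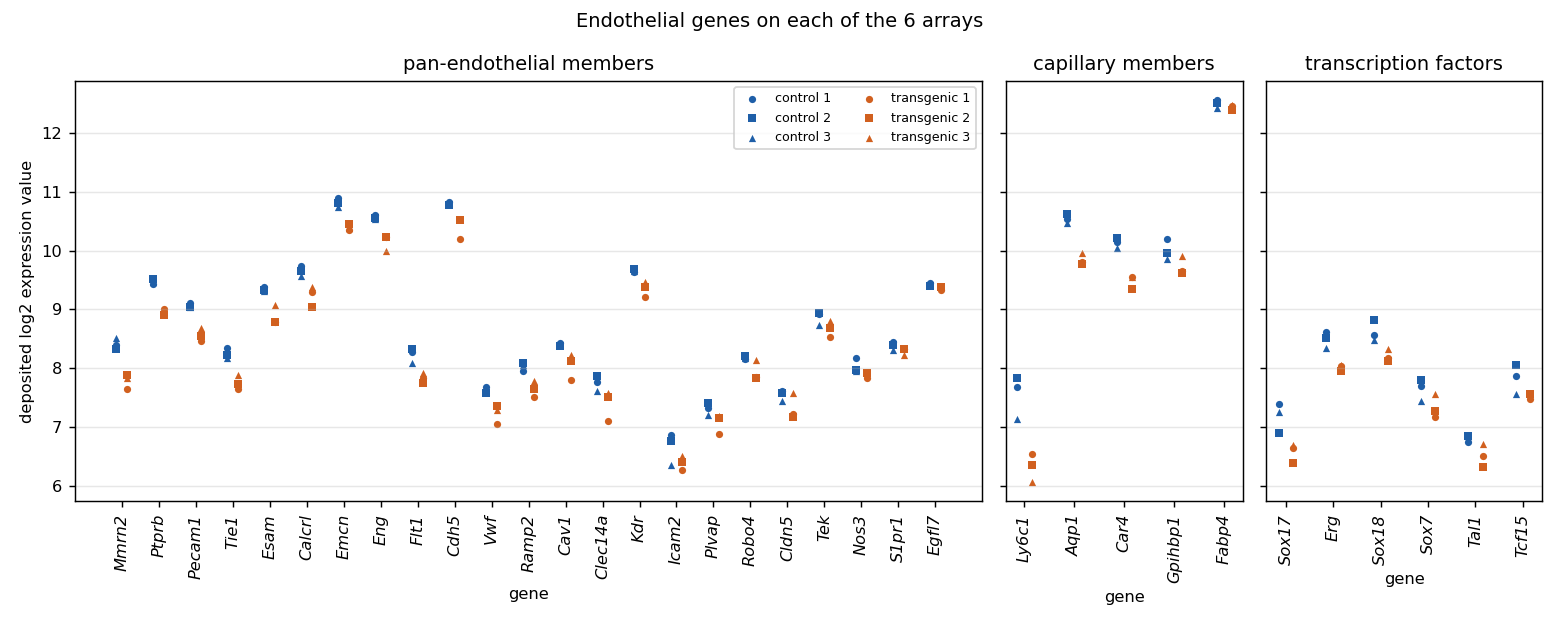
Deposited log2 expression values (y axis) of the 34 endothelial genes (x axis) on each of the 6 arrays, in panels for the pan-endothelial, capillary and transcription factor genes. Blue points are the 3 control arrays and orange points the 3 transgenic arrays, and for 26 genes all orange points lie below all blue points.

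The count of called genes depended on single arrays. It was 6 without control 1, transgenic 1 or transgenic 2, 10 without control 2 or transgenic 3, and 15 without control 3. Over all genes the count called lower was 1278 with all arrays, 1279 without control 3, and between 602 and 858 when any one of the other 5 arrays was left out. The 6 genes called under all 13 alternatives were Mmrn2, Ptprb, Pecam1, Ly6c1, Aqp1 and Car4. The sign of the difference stayed negative for all 34 genes in each of the 13. Leaving out 1 array moved the difference by over 1.5 times for 0 of the 17 called genes and 11 of the 17 others. Without transgenic 1, Clec14a went from -0.35 to -0.21, Cav1 from -0.36 to -0.24, Plvap from -0.24 to -0.15 and Tek from -0.20 to -0.13. Without control 1, Gpihbp1 went from -0.28 to -0.19, Icam2 from -0.27 to -0.17, Nos3 from -0.15 to -0.085, S1pr1 from -0.091 to -0.055 and Fabp4 from -0.053 to -0.022. Cldn5 went from -0.22 to -0.35 without transgenic 3, Tcf15 from -0.29 to -0.17 without control 2, and Icam2 to -0.42 and Fabp4 to -0.090 without control 3. S1pr1 was -0.057 without transgenic 3, and Fabp4 was -0.026 without transgenic 2.

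Among proteins of the endothelial junction and surface, Pecam1, the adhesion molecule CD31, had values of 9.11, 9.04 and 9.04 in control hearts and 8.46, 8.55 and 8.69 in transgenic hearts. The groups did not overlap, and Pecam1 fell by 0.50 on the log2 scale (SE 0.092, limma adjusted p = 0.0105), to 70.8% of control. Cdh5 encodes VE-cadherin, the adherens junction protein of endothelium. Its values were 10.82, 10.76 and 10.83 in control and 10.20, 10.51 and 10.53 in transgenic hearts, with transgenic 1 the lowest. Cdh5 fell by 0.39 (SE 0.11, limma adjusted p = 0.0483), close to the threshold. Esam, an adhesion molecule of tight junctions, read 9.38, 9.32 and 9.31 in control and 8.78, 8.80 and 9.07 in transgenic hearts, a fall of 0.46 (adjusted p = 0.0223). Emcn, the sialomucin endomucin of capillaries and veins, read 10.88, 10.81 and 10.73 against 10.35, 10.45 and 10.39. It fell by 0.41 (adjusted p = 0.0174), and its transgenic values lay within 0.1 of each other.

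Not every junction gene passed the test. Cldn5, the claudin of endothelial tight junctions, read 7.62, 7.59 and 7.44 in control and 7.22, 7.18 and 7.58 in transgenic hearts. Transgenic 3 lay inside the control range, and the difference was -0.22 (95% interval -0.50 to 0.05, adjusted p = 0.293). Icam2, a ligand for leukocyte integrins, had a difference of -0.27 with overlapping groups (adjusted p = 0.269).

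The receptors split between genes that fell and genes that did not pass. Tie1, the orphan partner of Tie2, read 8.35, 8.22 and 8.18 in control and 7.65, 7.73 and 7.90 in transgenic hearts, a fall of 0.49 (SE 0.098, adjusted p = 0.0147). Ptprb, the phosphatase VE-PTP that acts on Tie2 and VE-cadherin, read 9.42, 9.52 and 9.47 against 9.002, 8.90 and 8.97. Ptprb fell by 0.51 (SE 0.082, adjusted p = 0.00563), with little spread in either group. Tek, which encodes Tie2 itself, read 8.93, 8.95 and 8.73 in control and 8.53, 8.68 and 8.81 in transgenic hearts. Its groups overlapped, and its difference of -0.20 did not pass (95% interval -0.44 to 0.04, adjusted p = 0.283). Whether Tek differed in change from Tie1 or Ptprb was not tested.

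Both VEGF receptors were lower on every transgenic array than on any control array. Kdr, the main signalling receptor for VEGF-A, read 9.63, 9.68 and 9.66 in control and 9.21, 9.38 and 9.46 in transgenic hearts. Its difference of -0.30 missed the threshold (SE 0.093, adjusted p = 0.0711). Flt1, the high-affinity VEGF receptor that also acts as a decoy, fell by 0.39 (adjusted p = 0.0352). Eng, the TGF-beta coreceptor endoglin, read 10.61, 10.55 and 10.53 against 10.23, 10.23 and 9.99, a fall of 0.41 (adjusted p = 0.0284).

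Calcrl and Ramp2 together form the receptor for adrenomedullin, and both fell. Ramp2 read 7.96, 8.10 and 8.06 in control and 7.52, 7.66 and 7.78 in transgenic hearts, a fall of 0.39 (adjusted p = 0.0352). Calcrl fell by 0.41 (adjusted p = 0.0449). The guidance receptor Robo4 had a difference of -0.23 (adjusted p = 0.191), and S1pr1, the receptor for sphingosine 1-phosphate, had -0.09 (95% interval -0.29 to 0.10, adjusted p = 0.574).

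Mmrn2, a matrix protein of the endothelial surface that binds Clec14a, had the largest fall among pan-endothelial genes. It read 8.41, 8.33 and 8.51 in control and 7.65, 7.89 and 7.84 in transgenic hearts, a fall of 0.62 (SE 0.099, adjusted p = 0.00558). Clec14a, its lectin receptor, had a difference of -0.35 with non-overlapping groups (adjusted p = 0.140). Vwf, the clotting protein stored in endothelial granules, fell by 0.39 (adjusted p = 0.0415). Cav1, the caveolar coat protein, had -0.36 (adjusted p = 0.0849), and Plvap, the protein of caveolar and fenestral diaphragms, had -0.24 (adjusted p = 0.204). Nos3, endothelial nitric oxide synthase, had -0.15 (95% interval -0.36 to 0.06, adjusted p = 0.352).

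Egfl7, a secreted endothelial protein, had a difference of -0.06, the smallest among pan-endothelial genes (95% interval -0.24 to 0.12, adjusted p = 0.702). Its transgenic arrays still lay just below the control arrays. In all, 12 of the 23 pan-endothelial genes fell and 0 rose, with a median of -0.39. That count was 3 without control 1, transgenic 1 or transgenic 2, 5 without control 2, 6 without transgenic 3 and 9 without control 3.

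Apart from Pecam1, Ptprb and Mmrn2, each pan-endothelial call was lost when certain arrays were left out. The calls of Cdh5, Vwf and Calcrl were lost without any single array, at adjusted p-values between 0.0690 and 0.140 for Cdh5, 0.0632 and 0.134 for Vwf, and 0.0515 and 0.141 for Calcrl. Flt1 was lost without any array but control 3 (0.0649 to 0.128), Ramp2 without any but transgenic 3 (0.0657 to 0.126), and Eng without any but control 3 (0.0607 to 0.0927). Emcn was lost without control 1 or any transgenic array (0.0512 to 0.0729), and Esam without control 1, control 2, transgenic 1 or transgenic 2 (0.0508 to 0.0925). Tie1 was lost without control 1 (0.0590), transgenic 1 (0.0632) or transgenic 2 (0.0623). The Kdr difference passed once the dimmest genes were dropped (0.0435) or the variance followed intensity (0.0209), Cav1 passed with the latter (0.0428), and Icam2 passed without control 3 (0.0421).

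**Figure D2:**
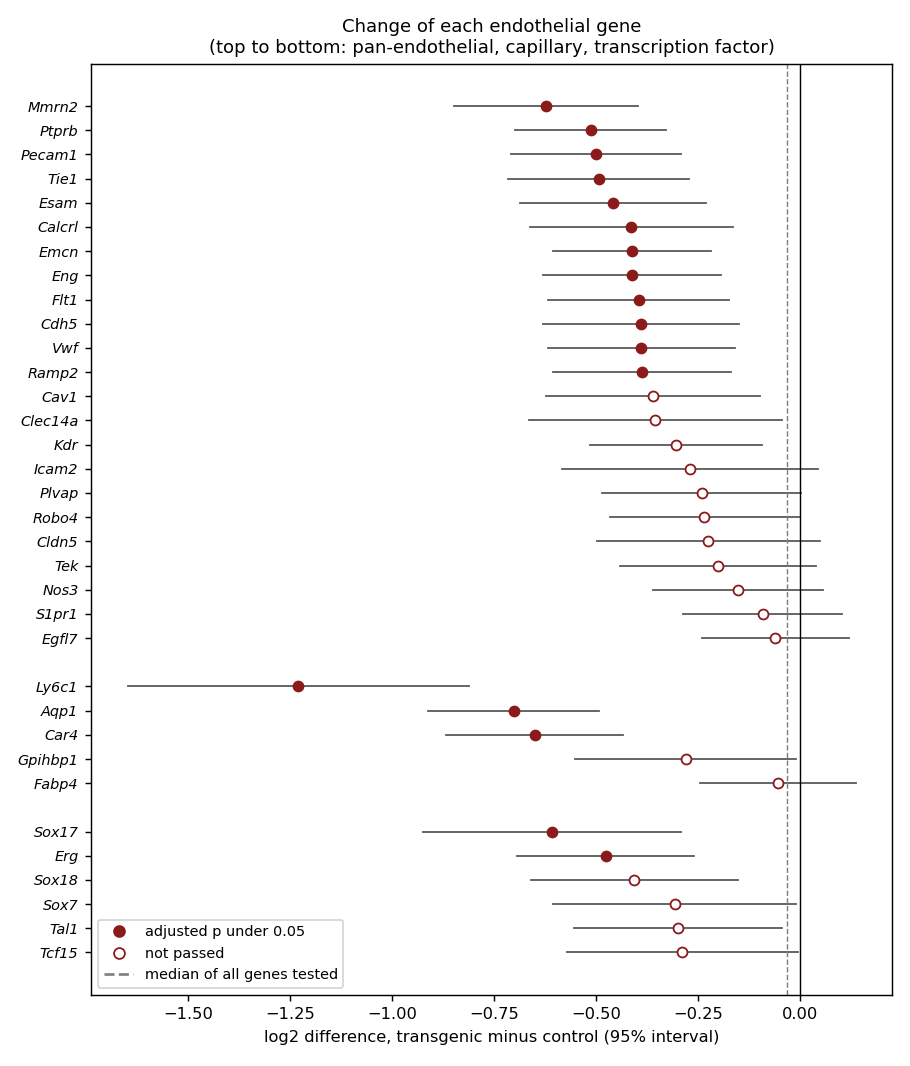
Log2 difference (x axis, transgenic minus control) of each of the 34 endothelial genes with its 95% interval. Filled points passed an adjusted p of 0.05 and open points did not, the dashed line is the median of all genes tested (-0.03), and all 34 points lie below 0.

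Capillary genes held the largest falls and also the smallest difference. Ly6c1, a surface protein of mouse endothelium, read 7.68, 7.83 and 7.15 in control and 6.54, 6.36 and 6.07 in transgenic hearts. The groups were far apart despite the low value of control 3, and Ly6c1 fell by 1.23 (SE 0.18, adjusted p = 0.00431), to 42.6% of control. Ly6c2, a near-identical gene known from monocytes, fell by 0.96 (adjusted p = 0.00348), and signal shared between the Ly6c genes could not be separated. Ly6c2 was chosen after its values were seen.

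Aqp1, the water channel of capillary endothelium, read 10.54, 10.63 and 10.47 in control and 9.80, 9.77 and 9.96 in transgenic hearts. It fell by 0.70 (SE 0.093, adjusted p = 0.00249), to 61.5% of control. Car4, the carbonic anhydrase anchored to the capillary surface, read 10.14, 10.21 and 10.04 against 9.55, 9.35 and 9.54. It fell by 0.65 (SE 0.095, adjusted p = 0.00392), to 63.7% of control, again with clear separation.

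Gpihbp1 and Fabp4 did not pass. Gpihbp1 anchors lipoprotein lipase on the capillary wall, and read 10.19, 9.96 and 9.85 in control and 9.65, 9.62 and 9.90 in transgenic hearts. Transgenic 3 lay above control 3, and the difference was -0.28 (95% interval -0.55 to -0.01, adjusted p = 0.182). Fabp4, the fatty acid binding protein, read 12.55, 12.50 and 12.42 against 12.46, 12.38 and 12.47, with mixed groups. Its difference of -0.05 had a 95% interval of -0.24 to 0.14 (adjusted p = 0.758). In all, 3 of the 5 capillary genes fell, a count that did not change when any one array was left out.

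All 6 transcription factors had negative differences, and 2 of them fell. Erg, the ETS factor that maintains endothelial identity, read 8.61, 8.52 and 8.35 in control and 8.05, 7.95 and 8.05 in transgenic hearts, a fall of 0.48 (SE 0.096, adjusted p = 0.0154). Its groups did not overlap. Sox17, the SOXF factor of arterial endothelium, read 7.39, 6.91 and 7.26 against 6.64, 6.40 and 6.70, a fall of 0.61 (SE 0.14, adjusted p = 0.0263). Control 2 was the lowest Sox17 control and still above all transgenic hearts.

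The other SOXF genes were close to Sox17 in direction but did not pass. Sox18 read 8.56, 8.81 and 8.48 in control and 8.18, 8.12 and 8.33 in transgenic hearts, without overlap. Its difference of -0.41 lay at the threshold (SE 0.11, adjusted p = 0.0503), and it passed under 6 of the 13 alternatives, one of them the fit without control 3 (0.0376). Sox7 read 7.70, 7.80 and 7.45 against 7.18, 7.27 and 7.57. Transgenic 3 exceeded control 3, and the difference of -0.31 did not pass (95% interval -0.61 to -0.01, adjusted p = 0.183).

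Tal1, the basic helix-loop-helix factor of blood and endothelium, read 6.74, 6.86 and 6.85 in control and 6.51, 6.33 and 6.72 in transgenic hearts. Its groups did not overlap, with a difference of -0.30 (adjusted p = 0.133). Tcf15, which with Meox2 serves the fatty acid transport programme of heart capillaries, read 7.87, 8.06 and 7.57 against 7.49, 7.57 and 7.57. The control arrays spread widely, and the difference was -0.29 (adjusted p = 0.191). It passed without control 3 (0.0343). The call of Erg was lost without control 1 (0.0605), transgenic 1 (0.0518) or transgenic 2 (0.0689), and that of Sox17 without control 1 (0.0857), control 3 (0.0614), transgenic 1 (0.0711), transgenic 2 (0.1003) or transgenic 3 (0.0511). The transcription factor count was thus 0 without control 1, transgenic 1 or transgenic 2, 1 without transgenic 3 and 3 without control 3.

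Side by side, the 3 sets had medians of -0.39 (pan-endothelial), -0.65 (capillary) and -0.36 (transcription factors), with ranges that overlapped: -0.62 to -0.06, -1.23 to -0.05 and -0.61 to -0.29. Whether the sets differed from each other was not tested, since their genes are not replicates. Differences in change between single genes were examined by subtracting the Cdh5 value of the same array from every gene. On that scale no transcription factor and no pan-endothelial gene passed the test in either direction, and 95% intervals reached about 0.34 to each side of the estimate. Of the 33 genes compared, 1 was called lower than Cdh5 (1.03% of all genes tested) and 0 were called higher, while 41.8% of all genes tested were called higher on this scale, in which Cdh5, itself lower by 0.39 in transgenic hearts, is set to 0.

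The gene called lower than Cdh5 was Ly6c1, with a relative change of -0.84 (95% interval -1.18 to -0.50, adjusted p = 2.48e-05). That p is too small, because the deviations of Cdh5 enter every gene and the fit gave each of the 33 genes the same SE of 0.17. Set on the mean of the controls, Ly6c1 relative to Cdh5 was 0.11, 0.32 and -0.43 in control and -0.41, -0.90 and -1.21 in transgenic hearts. Control 3 and transgenic 1 overlap, and an exact two-sided permutation test over the arrays gave p = 0.2, where 3 against 3 cannot go below 0.1. For Aqp1 (-0.31) and Mmrn2 (-0.23) the groups were separated downward on this scale, and for Egfl7 (0.33), Nos3 (0.24), S1pr1 (0.30) and Fabp4 (0.34) upward, each with an exact p = 0.1. Of all genes tested, 1.24% were separated downward and 58.9% upward on this scale. Without transgenic 1, Aqp1 (-0.40, adjusted p = 0.0425) and Car4 (-0.40, adjusted p = 0.0421) were called lower than Cdh5 too, so the count was 3. With the variance following intensity, Fabp4 was called higher than Cdh5 (adjusted p = 0.0326). With Pecam1 in place of Cdh5, Egfl7, Fabp4, Nos3, S1pr1 and Tek were called higher, with adjusted p-values from 0.00524 to 0.0395 that share the same limit.

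Array by array, the placing of the 34 genes restated the group difference described above and is not separate evidence that they move together. Every gene had its highest value on a control array, 17 on control 1, 15 on control 2 and 2 on control 3. Every gene had its lowest value on a transgenic array, 18 on transgenic 1, 13 on transgenic 2 and 3 on transgenic 3. How many of all genes share this placing was not counted. The mean over the 34 genes was 8.81, 8.79 and 8.68 in control and 8.31, 8.35 and 8.46 in transgenic hearts, and of all pairs of a control and a transgenic array, control 3 and transgenic 3 lay nearest to each other. The median over all genes on each array, between 5.96 and 6.03, had another order, with control 3 the highest and control 2 the lowest. Across the 34 genes the control level and the change had a Spearman correlation of -0.18 and a Pearson correlation of 0.06, as a description over genes that share the same 6 arrays.

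**Figure D3:**
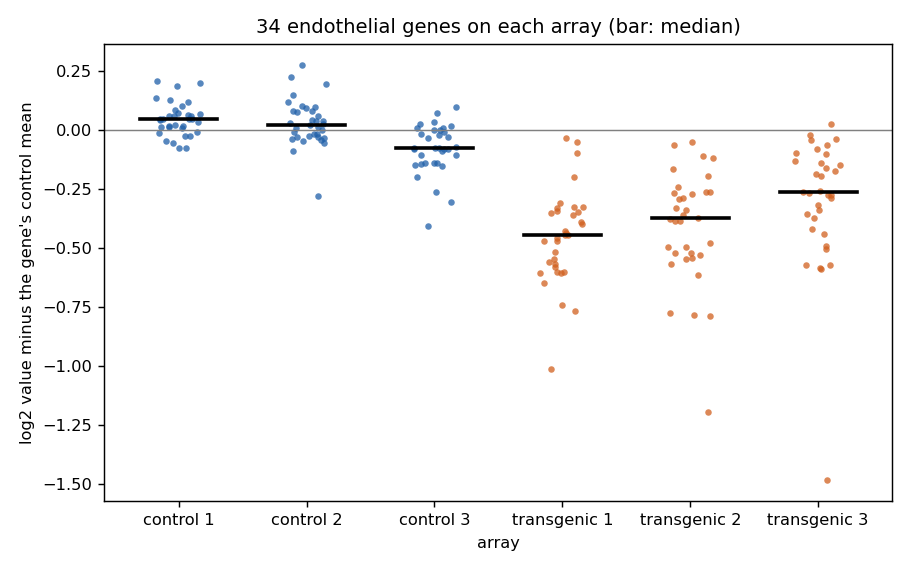
Each point is 1 of the 34 endothelial genes on 1 array (x axis), as its log2 value minus that gene's control mean (y axis), with a bar at the median. The medians are 0.05, 0.02 and -0.08 on the control arrays and -0.45, -0.37 and -0.26 on the transgenic arrays.

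Promoter sequences were examined because the genes were lower as a group and share ETS factors as known regulators. RefSeq start sites (GRCm38.p6) were matched by symbol for 18 of the 36 listed genes, with 25 promoters. The 250 bases before the start site are shown for 4 called genes with 1 start site each: a receptor, a surface mucin and the capillary genes Aqp1 and Car4. The capillary gene Ly6c1, also called and separated, has more than 1 start site and is not shown. Capitals mark the letters AGGAAG or their reverse complement, 1 form of the ETS motif, searched on both strands. Other forms were not searched or marked, so a count of 0 does not mean that a promoter lacks an ETS motif.
Tie1, chr4:118489850-118490099, minus strand: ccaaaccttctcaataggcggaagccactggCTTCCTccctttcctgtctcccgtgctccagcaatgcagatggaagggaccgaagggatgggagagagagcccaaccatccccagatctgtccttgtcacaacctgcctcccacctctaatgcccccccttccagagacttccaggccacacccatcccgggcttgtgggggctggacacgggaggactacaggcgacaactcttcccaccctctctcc
Emcn, chr3:137340828-137341077, plus strand: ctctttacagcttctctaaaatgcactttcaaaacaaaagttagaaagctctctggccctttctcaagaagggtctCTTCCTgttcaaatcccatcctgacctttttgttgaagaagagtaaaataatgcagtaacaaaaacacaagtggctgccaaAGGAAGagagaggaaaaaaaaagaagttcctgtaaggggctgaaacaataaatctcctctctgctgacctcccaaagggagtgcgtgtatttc
Aqp1, chr6:55336049-55336298, plus strand: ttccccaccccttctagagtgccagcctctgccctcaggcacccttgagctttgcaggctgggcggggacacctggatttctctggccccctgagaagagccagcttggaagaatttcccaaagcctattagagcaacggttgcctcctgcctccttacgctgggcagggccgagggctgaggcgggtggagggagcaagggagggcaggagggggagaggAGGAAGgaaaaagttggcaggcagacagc
Car4, chr11:84957504-84957753, plus strand: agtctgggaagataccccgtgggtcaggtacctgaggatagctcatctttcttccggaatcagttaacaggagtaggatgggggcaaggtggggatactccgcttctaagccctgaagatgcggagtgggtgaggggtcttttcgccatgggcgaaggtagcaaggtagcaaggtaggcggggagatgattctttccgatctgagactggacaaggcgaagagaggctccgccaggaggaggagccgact
Emcn holds the letters 2 times, Tie1 and Aqp1 1 time each and Car4 0 times in this window. They occurred in 12 of the 25 promoters of the listed genes (48.0%) and in 29.5% of all 32851 promoters of the same length in the table. The SOX letters ACAAT occurred in 24.0% of the promoters of the listed genes and 27.7% of all, the GATA letters AGATAA in 8% and 9.99%, and the KLF letters CACCC in 64.0% and 52.0%. The median GC content was 58.0% in the former and 52.4% in all promoters.

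Split by the test, AGGAAG occurred in at least 1 promoter of 8 of 9 called endothelial genes and of 2 of 8 genes that did not pass, Egfl7 and Robo4. Over all genes with a promoter in the table the shares were 32.3% of genes called lower and 31.8% of genes not called. The same split gave 3 of 9 and 3 of 8 genes for the SOX letters, 1 of 9 and 1 of 8 for GATA, and 8 of 9 and 6 of 8 for KLF. Over all genes, the shares among those called lower and not called were 25.2% and 28.0% for SOX and 8.67% and 10.5% for GATA. For KLF they were 67.0% and 55.8%. The AGGAAG split among endothelial genes was seen after their values were known and is a description of 17 genes with no test. A match of letters is not a binding site, and binding was not measured.

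Endothelial genes outside the list also went mostly down. Of 90 other endothelial genes in 6 lists, all measured, 77 had negative differences, 29 fell and 2 rose, with a median of -0.27. Over all genes tested, 12567 of 22180 had negative differences, 5.76% were called lower and 5.35% higher. These lists, too, were chosen with earlier results of these data known, so they are not independent of the member list. Several of these genes are also expressed by other heart cells, such as Lpl by heart muscle and Postn by fibroblasts. The count of 29 was 13 without control 1 or transgenic 2, 15 without control 2 and 12 without transgenic 1.

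Of 31 other pan-endothelial genes, 11 fell and 1 rose. The riser was Vcam1, by 0.37 (adjusted p = 0.0453), close to the threshold, and its call was not followed under the alternatives. Thbd, the anticoagulant thrombomodulin, fell by 0.62 (adjusted p = 0.00608), the adhesion receptor Adgrf5 by 0.56 and its relative Adgrl4 by 0.60. The Adgrl4 call was lost without transgenic 1 (0.0561) or transgenic 2 (0.0573). Of 13 other capillary genes, 7 fell and 0 rose. Pltp, the phospholipid transfer protein, fell by 1.04, Cd300lg, a receptor of capillary endothelium, by 0.65 and C1qtnf9, an adiponectin relative, by 0.99, with adjusted p-values from 0.00124 to 0.00234. With its 2 probes averaged, C1qtnf9 fell by 0.60 (adjusted p = 0.0101).

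Of 22 other endothelial transcription factors, 6 fell and 0 rose. Klf4, a factor induced by laminar flow, fell by 0.99 (adjusted p = 0.00392), and Epas1, the hypoxia-inducible factor HIF-2 alpha, by 0.61 (adjusted p = 0.00378). Ets1, an ETS factor, fell by 0.42 (adjusted p = 0.0186). The Ets1 call was lost without control 1 (0.0695), transgenic 1 (0.0516) or transgenic 2 (0.0804).

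Of 10 arterial genes, 3 fell and 0 rose. The Notch effector Hey1 fell by 0.66 (adjusted p = 0.0174), the arterial ephrin Efnb2 by 0.48 (adjusted p = 0.0189), and the Notch ligand Dll4 by 0.41 (adjusted p = 0.0290). All 3 calls were lost without control 1, control 2, transgenic 1 or transgenic 2, at adjusted p-values of 0.0520 to 0.112. Of 8 venous and lymphatic genes, 1 fell and 0 rose. It was Lyve1, the hyaluronan receptor of lymphatic endothelium and some macrophages, which fell by 0.59 (adjusted p = 0.00722). Flt4, the VEGF-C receptor, had -0.29 and Nr2f2, the venous factor COUP-TFII, had -0.31, neither of which passed.

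Of 8 endocardial genes, 1 fell and 1 rose. Tmem100, a target of BMP and ALK1 signalling in endothelium, fell by 1.60 (SE 0.11, adjusted p = 0.000180), the largest fall of any endothelial gene examined. Its groups were separated on all 6 arrays. Postn, which fibroblasts and valve cells also make, rose by 0.33 (adjusted p = 0.0450), a call lost without any single array (0.0682 to 0.159), after a second quantile normalization (0.0616) and after centring the arrays (0.0785).

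Of 11 vascular growth factors, which include ligands for the receptors above, 4 fell and 0 rose. Angpt1, the ligand of Tie2, fell by 1.18 (SE 0.17, adjusted p = 0.00322) on the brighter of its 2 probes and by 0.61 with both averaged (adjusted p = 0.0109). Vegfb, a ligand of Flt1, fell by 0.60 (adjusted p = 0.00273), and Apln, the peptide apelin, fell by 0.56 (adjusted p = 0.0250). The Apln call was lost without control 1 (0.0719), transgenic 1 (0.0776) or transgenic 2 (0.0974). Vegfa had a difference of -0.08 (95% interval -0.26 to 0.11, adjusted p = 0.626), and Angpt2, the context-dependent Tie2 ligand, had -0.18 (adjusted p = 0.273). Adm, the adrenomedullin bound by Calcrl with Ramp2, had 0.56 (95% interval 0.12 to 1.01, adjusted p = 0.109).

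Markers of other heart cells moved to different degrees. All 13 macrophage markers had negative differences, 8 fell and 0 rose, with a median of -0.57. Their mean lay between 6.75 and 6.85 in control and between 6.12 and 6.32 in transgenic hearts. Csf1r, the growth factor receptor that macrophages depend on, fell by 0.94, and C1qb of the complement system by 0.96. Of 11 markers of mural cells, the pericytes and smooth muscle around vessels, 6 fell and 0 rose, with a median of -0.38. Their mean was 8.94 to 8.95 in control against 8.44 to 8.68 in transgenic hearts. Vtn, vitronectin made by pericytes, fell by 1.18, and Rgs5 by 0.65. With the probes of Rgs5 averaged, its call was lost (0.0710).

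Fewer markers of the remaining cell types passed the test. Of 14 cardiomyocyte markers 0 fell and 1 rose, with a median of -0.0025. Their mean, with Nppa included, was 12.25 to 12.33 in control and 12.37 to 12.41 in transgenic hearts. The markers did not move together: 7 of the 14 had negative differences, and 5 were separated downward and 3 upward. Of all 22180 genes, 3698 were separated downward and 3154 upward. The riser was Nppa, atrial natriuretic peptide, by 1.20. Of 12 fibroblast markers 2 fell, Pi16 by 1.24 and Mfap5 by 0.57, and 0 rose, with a median of -0.06. Of 8 lymphocyte, 7 adipocyte, 5 platelet and megakaryocyte and 3 red cell markers, 0 passed in either direction. The 3 red cell markers were the only ones measured of 12 listed. Median control levels of the lymphocyte (5.03), adipocyte (4.87) and red cell lists lay below that of all genes (5.98). That of the platelet and megakaryocyte list (6.54) did not. A lack of calls among such dim or few markers does not show that these cell types were unchanged. All 7 proliferation genes rose, with a median of 0.82 (Mki67 by 0.82). How far these shifts in other cell types and in proliferation take part in the endothelial differences was not tested.

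**Figure D4:**
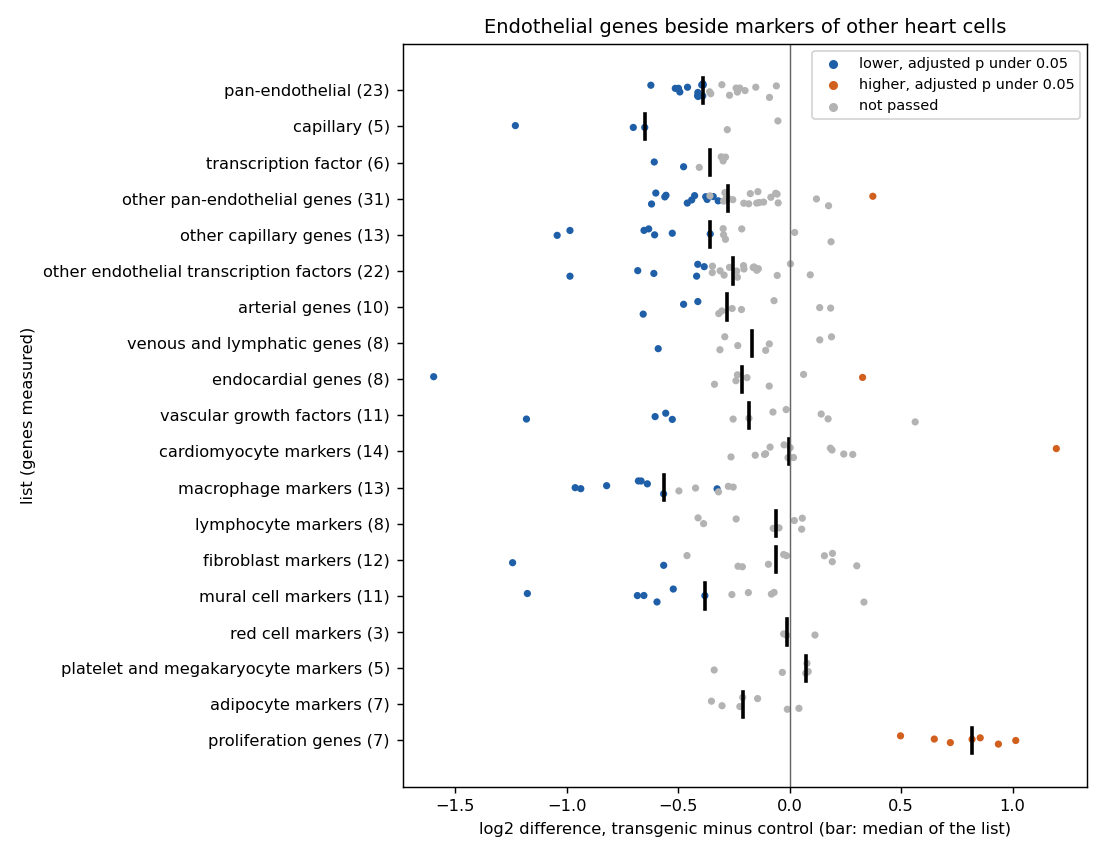
Log2 differences (x axis, transgenic minus control) of single genes in each list (rows, genes measured in brackets), with a bar at the list's median. Blue points were called lower and orange points higher at an adjusted p of 0.05. Medians of the endothelial, macrophage and mural cell lists run from -0.65 (capillary) to -0.17 (venous and lymphatic). The median of the cardiomyocyte markers is -0.0025. Those of the fibroblast, lymphocyte, adipocyte, red cell and vascular growth factor lists are also below 0.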

How the data were processed

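Total RNA from mouse hearts was measured on 6 Affymetrix arrays, 3 per group. Per the labels' protocols, 100 ng of RNA was reverse transcribed from a poly(T) primer, amplified and biotinylated. The authors deposited log2 expression for 41345 probes on each array. Tools named in the submitters' processing notes are RMA, oligo and limma, with no version or role. How background was corrected and probes filtered is not given in the sources used here, and no detection calls, slides or scan dates were used.

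In the platform annotation 23521 probes had 1 gene symbol, 1814 had several and 16010 had none. The brightest probe per gene by mean over all arrays was used for 22180 genes. Groups were compared across all genes with lmFit and eBayes of limma 3.58.1 (R 4.3.3), without covariates, at a Benjamini-Hochberg adjusted p of 0.05, with no filter on dim probes. For the comparison with Cdh5, the array's Cdh5 value was subtracted from every gene first. The number of arrays, with 4 residual degrees of freedom, limits the precision. The steps were tested on simulated data.

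The members and lists were chosen with earlier results of these data known. Every member is named, with values of all arrays for the 8 pan-endothelial genes with the smallest p, for Cdh5, Pecam1, Kdr, Tek and Cldn5, and for all capillary genes and transcription factors. Of other endothelial lists up to 3 genes, and of other cell types up to 2, are named by smallest p, along with Vegfa, Angpt1, Angpt2 and Apln. Genes outside this rule, such as Mki67, Lpl, Ly6c2, Vcam1, Vegfb and Adm, were chosen after their values were seen. The endothelial microRNA gene Mir126a shares its probe with Egfl7 and was not analysed here. Egfl7 itself was read on another probe, assigned to it alone. Sequences come from RefSeq tables of GRCm38.p6. Alternatives dropped the lowest 0.333 of genes by mean level, averaged probes, normalized by quantiles again, centred arrays, used an intensity trend with robust variance, array weights or a replicate block, left out each array, and used Pecam1 in place of Cdh5.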

Additional observations from a re-analysis of the deposited data

How the results depend on the processing

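With all 6 arrays kept, the count of endothelial genes called lower stayed between 17 and 20 under 6 other settings (dim genes left out, probes averaged, quantiles again, centred arrays, intensity trend, array weights), and all 17 calls held in these. With 1 array left out, the counts ranged from 6 to 15 for all endothelial genes, 3 to 9 for pan-endothelial genes, 0 to 3 for transcription factors, 12 to 30 for the other endothelial genes and 1 to 3 for genes lower than Cdh5, and stayed at 3 for capillary genes. Of the 17 called genes, 6 kept their call under all 13 alternatives and 11 lost it under at least 1. Of the 17 uncalled genes, 5 gained a call under at least 1. No difference of the 34 genes changed sign. Rhag, an uncalled red cell marker at -0.03, ranged from -0.082 to 0.054 with 1 array left out. Over all genes, same-numbered samples did not deviate together from their group means (correlations of 0.02, -0.13 and 0.01 for numbers 1, 2 and 3). With 3 samples per group, such correlations cannot show whether same-numbered samples were paired in handling, and the labels give them only a shared number. With the replicate block, 13 endothelial genes and 19 instead of 29 other endothelial genes were called lower. The cause of these shifts was not tested. The fits that leave 1 out also rest on fewer arrays. Probe signal over background was not used here, and differences of the dimmest genes may be understated.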
